A study of Mus musculus with 12 samples.

Results

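The UDP-glucuronosyltransferase genes of the Ugt2 and Ugt3 families, together with Ugdh, were measured in mouse hepatocellular carcinoma (HCC) and normal liver. All probe sets that named Ugt2a3, Ugt2b1, Ugt2b5, Ugt2b34, Ugt2b35, Ugt2b36, Ugt2b38, Ugt3a1, Ugt3a2 or Ugdh were taken, which gave 12 of the 45037 probe sets that were not array controls. The array named 18193 genes by probe sets of 1 gene, of which these are 10. Each of the 12 named 1 gene, and Ugt2b34 and Ugt3a1 had 2 probe sets each. The samples were 6 HCC that had arisen spontaneously and 6 normal livers, each hybridised to 1 single-colour Affymetrix array. Both groups were B6C3F1 mice, the hybrid of C57BL/6 and C3H used in rodent cancer bioassays, were 2 years old at the end of a National Toxicology Program bioassay and carried no treatment. The labels give neither sex nor whether every sample came from a separate animal, so p-values measure the spread between these samples. Levels are log2(intensity + 16) after quantile normalization, on which a linear signal of 0 sits at 4. Precision is limited by having 12 arrays.

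UDP-glucuronosyltransferases sit in the membrane of the endoplasmic reticulum and attach the sugar of UDP-glucuronate to steroids, bile acids, drugs and other lipophilic compounds, which can then leave the hepatocyte in bile or blood. Ugdh, UDP-glucose dehydrogenase, works in the cytosol and oxidises UDP-glucose to UDP-glucuronate, the cosubstrate of the Ugt1 and Ugt2 enzymes. The Ugt3 enzymes differ in their sugar: human UGT3A1 uses UDP-N-acetylglucosamine, and human UGT3A2 uses UDP-glucose and UDP-xylose. The liver is a main site of Ugt2b expression, and the mouse Ugt2 genes lie next to each other on chromosome 5.

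The promoters of the 4 genes that passed the test below are shown first, with that of Ugt2b38, which did not pass and whose promoter was the most like that of a gene that did. Each is the 250 bases before the gene's start, read 5′ to 3′ on the gene's strand, from RefSeq on build GRCm38.p6. They lie at chr5:87140341-87140590 (minus strand) for Ugt2b5, chr5:87424204-87424453 (minus strand) for Ugt2b38, chr5:86926504-86926753 (minus strand) for Ugt2b1, chr5:87337196-87337445 (minus strand) for Ugt2a3 and chr15:9279579-9279828 (plus strand) for Ugt3a1. In Ugt2b5 and Ugt2b38 capitals mark the bases that differ from the other gene or face a gap in their alignment, overhangs at the ends included.
Ugt2b5: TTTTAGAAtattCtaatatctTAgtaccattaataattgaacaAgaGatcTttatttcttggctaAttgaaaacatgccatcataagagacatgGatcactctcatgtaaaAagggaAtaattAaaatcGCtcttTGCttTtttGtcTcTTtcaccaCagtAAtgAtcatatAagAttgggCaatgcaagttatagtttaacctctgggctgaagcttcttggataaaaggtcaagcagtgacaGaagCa
Ugt2b38: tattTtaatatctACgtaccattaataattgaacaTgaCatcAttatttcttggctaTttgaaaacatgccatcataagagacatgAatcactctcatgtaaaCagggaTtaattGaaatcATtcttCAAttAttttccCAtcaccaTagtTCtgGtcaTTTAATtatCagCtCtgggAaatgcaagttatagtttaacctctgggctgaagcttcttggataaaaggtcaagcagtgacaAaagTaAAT
Ugt2b1: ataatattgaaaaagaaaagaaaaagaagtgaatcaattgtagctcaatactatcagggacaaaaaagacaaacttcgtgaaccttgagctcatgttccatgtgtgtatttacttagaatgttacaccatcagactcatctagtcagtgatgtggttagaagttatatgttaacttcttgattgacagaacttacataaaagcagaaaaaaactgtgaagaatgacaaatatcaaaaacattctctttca
Ugt2a3: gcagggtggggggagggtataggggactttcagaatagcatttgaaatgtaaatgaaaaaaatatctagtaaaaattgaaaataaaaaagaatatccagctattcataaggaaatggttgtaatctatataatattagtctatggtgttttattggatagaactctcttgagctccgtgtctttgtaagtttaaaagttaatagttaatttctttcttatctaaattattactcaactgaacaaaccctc
Ugt3a1: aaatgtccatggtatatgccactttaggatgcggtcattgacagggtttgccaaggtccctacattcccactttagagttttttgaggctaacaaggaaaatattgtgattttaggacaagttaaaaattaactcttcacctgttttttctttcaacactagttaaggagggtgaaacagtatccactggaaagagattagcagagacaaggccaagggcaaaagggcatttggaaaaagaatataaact

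The genes are paralogues and their promoters are not independent. Of the 36 pairs among the 9 member genes with a promoter in the table, Ugt2b5 and Ugt2b38 were the most alike, with 212 of 260 aligned positions identical (81.5%). Ugt2b36 and Ugt2b38 came next at 60.4%, and the least alike pair, Ugt2a3 and Ugdh, stood at 39.6%. Ugt3a2 was not compared. Identity of promoters is a description of sequence, and its relation to the levels was not tested.

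The first comparison asked which of these enzymes differed between HCC and normal liver. Ugt3a1, Ugt2b1, Ugt2a3 and Ugt2b5 fell, and no member rose. With limma fitted over all probe sets and a Benjamini-Hochberg adjusted p under 0.05, 5 of the 12 member probe sets, from 4 of 10 genes, were lower in HCC, where 3.95% of all probe sets were lower, 4.38% higher and 8.33% either. Of the 12, 11 lay above the median probe set in mean level, and among probe sets above that median 6.58% were lower and 6.99% higher. The median difference over the 12 was -0.66, against -0.02 over all probe sets. All 6 HCC lay below all 6 normal livers in 5 of the 12, against 3.08% of all probe sets, and in none did all HCC lie above (3.41% of all). Those 5 were not the same as the 5 past the test: Ugt3a2 was among them and Ugt2b5 was not.

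**Figure D1:**
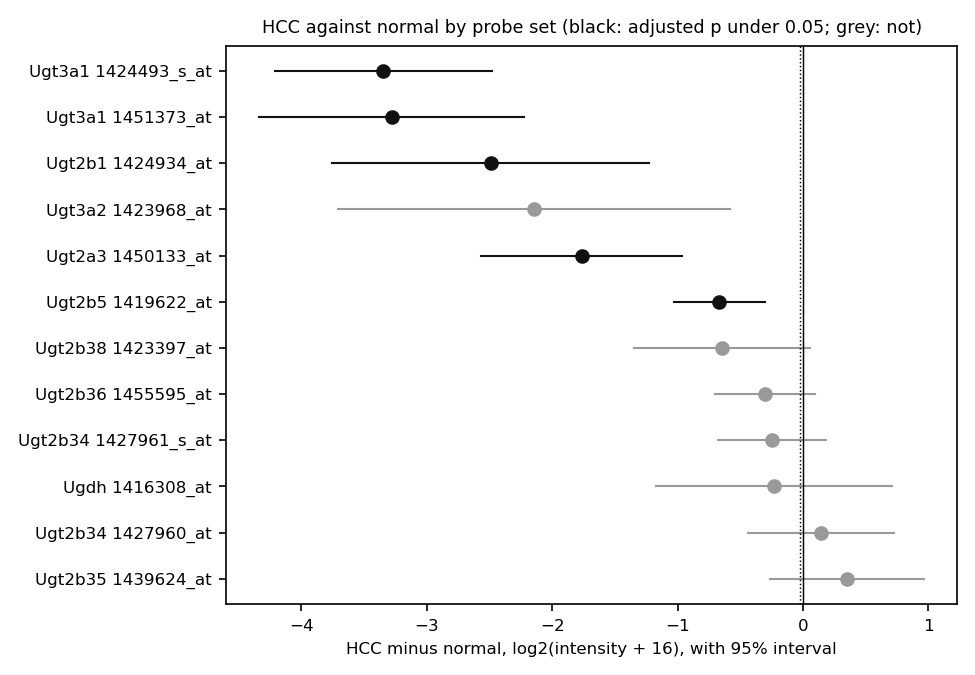
HCC minus normal on the log2(intensity + 16) scale for each of the 12 probe sets, with 95% intervals from limma; the dotted line is the median of all probe sets (-0.02). Black points passed an adjusted p under 0.05, and the 2 Ugt3a1 probe sets lie farthest left, at -3.35 and -3.28.

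Ugt3a1 differed most. Its first probe set, 1424493_s_at, read 8.67, 9.26, 6.96, 8.81, 8.85 and 6.85 in HCC 1 to HCC 6, against 11.18, 11.51, 11.59, 11.56, 11.95 and 11.68 in normal 1 to normal 6. Every tumour was below every normal liver, and HCC 3 and HCC 6 were lowest. The difference was -3.35 ± 0.40 (SE, limma adjusted p = 0.00041), which is 10.2-fold lower in HCC, and ranked 36 from the most lowered of 45037 probe sets. The second probe set, 1451373_at, averaged 8.14 ± 1.28 (SD) in the 6 HCC and 11.42 ± 0.36 in the 6 normal livers. It gave -3.28 ± 0.49 (SE, limma adjusted p = 0.00165) and again placed HCC 3 and HCC 6 lowest, at 6.84 and 6.40. Without any single array the adjusted p of both sets stayed at or under 0.00526.

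Ugt3a2, the neighbouring gene on chromosome 15, was uneven among the tumours. It read 13.17, 12.26, 8.88, 13.19, 11.76 and 8.91 in HCC 1 to HCC 6, against 13.64, 13.44, 13.67, 13.31, 13.66 and 13.35 in normal 1 to normal 6. HCC 3 and HCC 6 were more than 4 log2 units under the mean of normal liver. HCC 1 and HCC 4 were at -0.33 and -0.32 against that mean, yet still below the lowest normal liver, 13.31. The mean difference was -2.14 ± 0.72 (SE) and did not pass (limma adjusted p = 0.0892, 95% interval from -3.70 to -0.58). The spread among the tumours was wide, with an SD of 1.99 against 0.16 in normal liver (n = 6 each). An exact Wilcoxon test, which uses ranks only, gave an adjusted p of 0.0334. That value follows from the lack of overlap alone, and every probe set whose groups do not overlap has it. With limma on the probe sets above the median level alone the adjusted p was 0.0468, so Ugt3a2 passed under both. Over all its alternatives the adjusted p ran from 0.0334 to 0.484.

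Ugt2b1, a Ugt2b enzyme of mouse liver, was at 11.72, 12.98, 10.80, 12.63, 12.95 and 9.11 in HCC 1 to HCC 6, against 13.32, 14.49, 13.82, 14.58, 14.58 and 14.33 in normal 1 to normal 6. The groups did not overlap, although HCC 2, at 12.98, came near the lowest normal liver, normal 1 at 13.32. HCC 6 was the lowest tumour, at -5.08 against the mean of normal liver. The difference was -2.49 ± 0.59 (SE, limma adjusted p = 0.0203), or 5.62-fold lower in HCC. The adjusted p stayed at or under 0.0463 with any 1 array left out.

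Ugt2a3, whose human counterpart conjugates bile acids, read 11.58, 12.09, 10.83, 12.16, 12.64 and 10.09 in HCC 1 to HCC 6, against 13.13, 12.91, 13.34, 13.67, 13.45 and 13.48 in normal 1 to normal 6. The groups did not overlap here either, and HCC 6 and HCC 3 were again the lowest tumours. It was lower by 3.40-fold (difference -1.76 ± 0.37, SE, limma adjusted p = 0.0116), with an adjusted p of at most 0.0295 when 1 array was left out.

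Ugt2b5 had a small difference. Its values were 14.13, 13.97, 14.37, 14.12, 14.47 and 13.63 in HCC 1 to HCC 6, against 14.46, 14.76, 14.82, 14.90, 14.90 and 14.87 in normal 1 to normal 6. HCC 5 and normal 1 overlapped, and the remaining normal livers were above every tumour. The difference was -0.67 ± 0.17 (SE, limma adjusted p = 0.0272), or 1.59-fold lower in HCC. This call did not hold with the deposited scaling (adjusted p = 0.066), nor when any 1 of 6 arrays was left out: HCC 4, normal 2, normal 3, normal 4, normal 5 or normal 6 (adjusted p up to 0.0612).

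**Figure D2:**
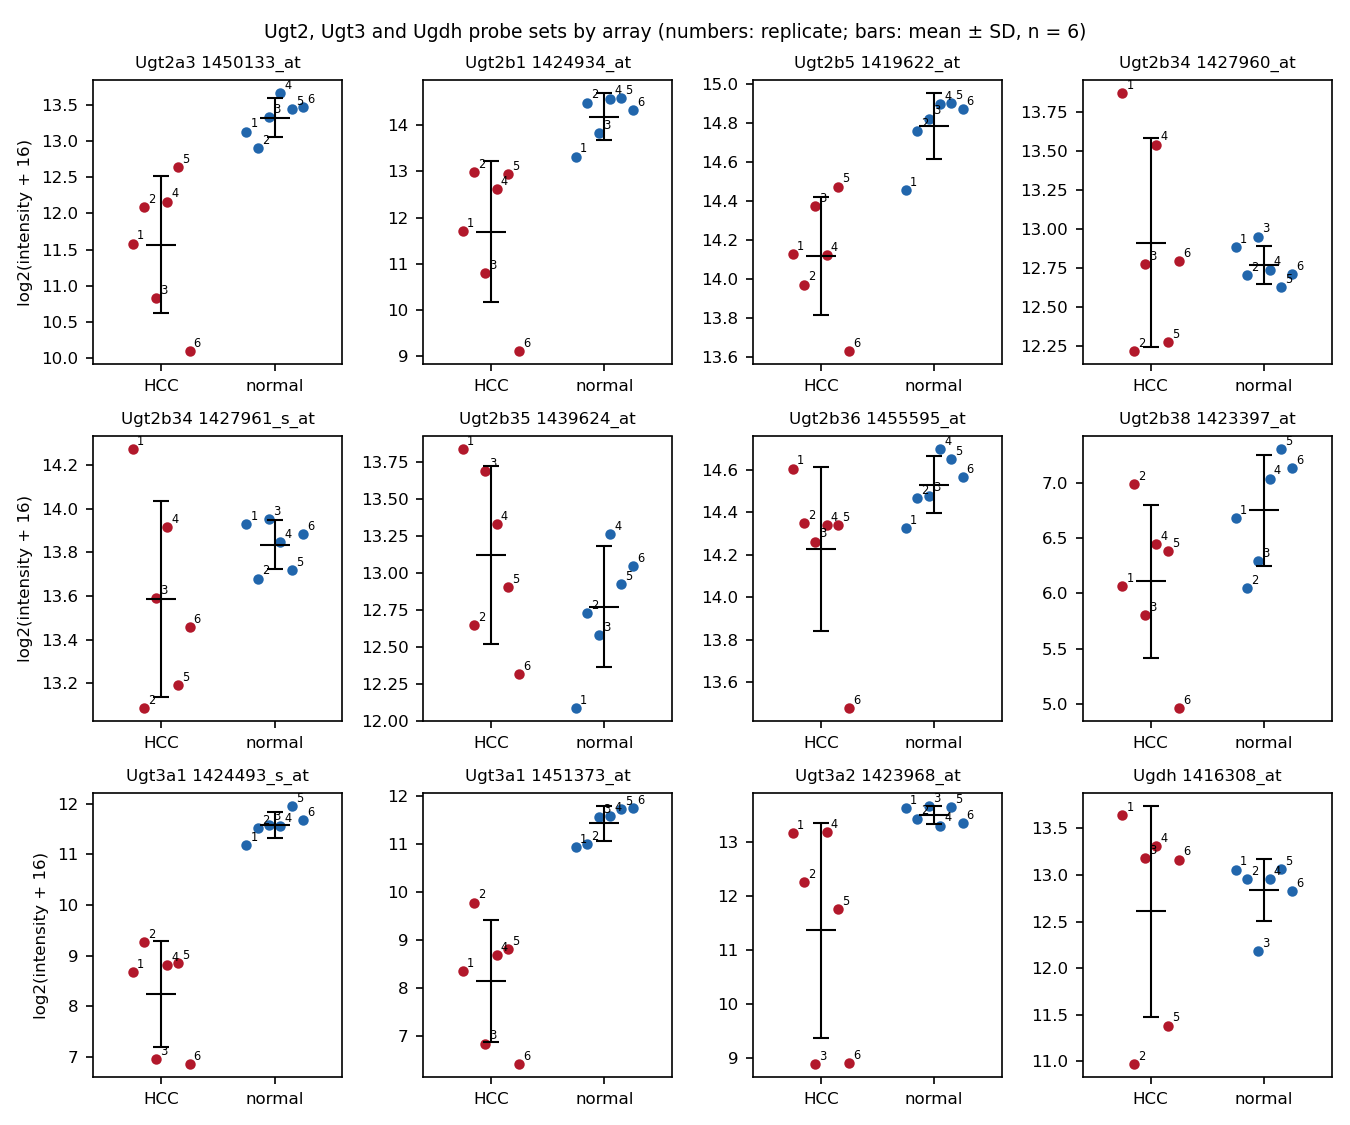
Level of each probe set, log2(intensity + 16), in the 6 HCC (red, left) and the 6 normal livers (blue, right), each panel with its own axis that does not start at 0. Numbers beside the points are replicate numbers and bars are mean ± SD; in the Ugt3a1, Ugt2b1, Ugt2a3 and Ugt3a2 panels all HCC lie below all normal livers.

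The other Ugt2b members gave no call. Ugt2b36 averaged 14.23 ± 0.39 (SD) in the 6 HCC and 14.53 ± 0.14 in the 6 normal livers (difference -0.30, 95% interval from -0.70 to 0.10). HCC 6, at 13.48, stood apart from the other tumours, which lay between 14.26 and 14.61. Ugt2b38 was dim, at 6.11 ± 0.69 in HCC and 6.75 ± 0.50 in normal liver, near the median probe set at 6.76 and not far above the floor of 4 (difference -0.64, 95% interval from -1.34 to 0.06). Its lowest value was again in HCC 6, at 4.96. A low signal compresses differences on this scale, so a change of Ugt2b38 is poorly measured.

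Ugt2b35 had a mean above normal liver, at 13.12 ± 0.60 (SD) in the 6 HCC and 12.77 ± 0.41 in the 6 normal livers (difference 0.35, limma adjusted p = 0.51, 95% interval from -0.26 to 0.96). HCC 1, HCC 3 and HCC 4, at 13.84, 13.69 and 13.33, were above the highest normal liver, at 13.26. Ugt2b34 had differences of opposite sign in its 2 probe sets, 0.14 for 1427960_at and -0.25 for 1427961_s_at, with 95% intervals from -0.44 to 0.72 and from -0.68 to 0.18. Both sets ordered the tumours alike at the ends. In 1427960_at HCC 1 and HCC 4 were highest, at 13.88 and 13.54, and HCC 2 and HCC 5 lowest, at 12.21 and 12.27, with all normal livers between 12.63 and 12.95. The sign of 1427960_at turned with median centring, to -0.049.

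Ugdh, the maker of the cosubstrate, did not pass the test. It read 13.65, 10.97, 13.18, 13.31, 11.38 and 13.17 in HCC 1 to HCC 6, against 13.06, 12.95, 12.19, 12.96, 13.07 and 12.82 in normal 1 to normal 6. The tumours lay on both sides: HCC 2 and HCC 5 were under every normal liver, at -1.87 and -1.46 against the mean of normal liver, and the other 4 were above every normal liver. The mean difference was -0.23 ± 0.44 (SE, limma adjusted p = 0.808, 95% interval from -1.17 to 0.71). It was 0.10 without HCC 2 and 0.01 without HCC 5, so its sign rests on those 2 tumours.

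The tumours differed from each other in which members were lowest. HCC 6 had the lowest level of the 6 tumours in 8 of the 12 probe sets and a median of -1.47 against the mean of normal liver. HCC 2 was lowest in 3 and HCC 3 in 1. HCC 1 had the highest level in 5 of the 12 and 4 probe sets above the range of normal liver, and HCC 4 had 3. The 8 of HCC 6 include both probe sets of Ugt3a1. Such counts were not made over all probe sets, so whether they are particular to these members cannot be told. The medians over the 12 sets were -0.49, -1.01, -0.68, -0.31 and -0.66 in HCC 1 to HCC 5. HCC 3 and HCC 6 held the lowest Ugt2a3, Ugt2b1, Ugt3a1 and Ugt3a2, while HCC 2 and HCC 5 held the lowest Ugdh and Ugt2b34. These 2 sets were picked by where their lowest values fell, so that division is no further result. Other members did not all follow it. Ugt2b5 (13.63 and 13.97) and Ugt2b35 (12.31 and 12.64) were lowest in HCC 6 and HCC 2. Ugt2b36 (13.48 and 14.26) and Ugt2b38 (4.96 and 5.80) were lowest in HCC 6 and HCC 3. Ugt2a3, Ugt2b1, Ugt3a1 and Ugt3a2 were below every normal liver in all 6 tumours.

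**Figure D3:**
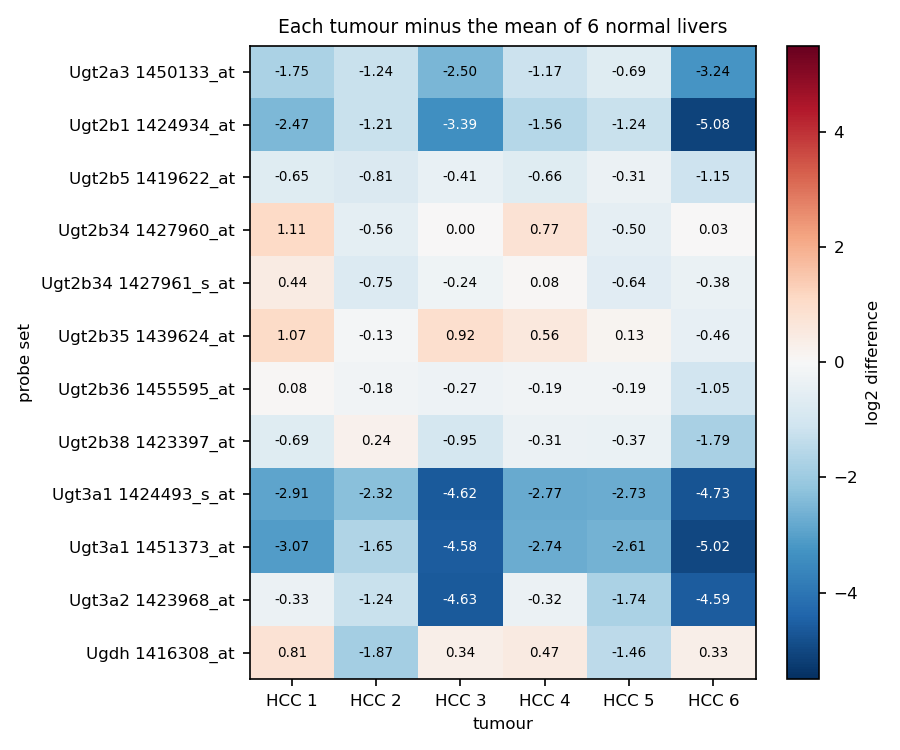
Log2 difference of each HCC from the mean of the 6 normal livers for the 12 probe sets, blue for lower and red for higher, with the value in each cell. Ugt3a1 is blue in all 6 columns, Ugt3a2 is darkest in HCC 3 and HCC 6 (-4.63 and -4.59), and Ugdh is blue only in HCC 2 and HCC 5.

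Markers of liver zonation followed the order of the members only in part. Glutamine synthetase (Glul), a beta-catenin target of hepatocytes around the central vein, was at 15.17, 11.75, 11.40, 15.10, 12.03 and 14.62 in HCC 1 to HCC 6, against 13.29 to 14.33 in normal liver. The low-Ugdh tumours HCC 2 and HCC 5 therefore had low Glul, but HCC 3, with Ugdh above normal liver, had the lowest Glul. HCC 1 and HCC 4 had the highest Glul, the highest Ugdh and, in both its probe sets, the highest Ugt2b34. The relation of these levels was not tested. HCC 3 and HCC 6, the tumours with the least Ugt3a2, had Glul on opposite sides of normal liver. The beta-catenin feedback gene Axin2 was at 5.06 in HCC 3 and 9.14 in HCC 6. Cyp2f2, a gene of hepatocytes around the portal vein, was at 12.06 in HCC 3 and 11.17 in HCC 6, and at 7.37 and 6.25 in HCC 1 and HCC 4, against 14.82 ± 0.32 in normal liver (SD, n = 6).

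The spread among tumours was wider than among normal livers in all 12 probe sets, with a median ratio of SDs of 3.45, where 58.5% of all probe sets had the larger SD in HCC and the median ratio was 1.13. This is a description and was not tested. The spread was not compared among probe sets above the median level alone, where 11 of the 12 lay.

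Along chromosome 5 the cluster runs Ugt2b34, Ugt2b1, Ugt2b35, Ugt2b36, Ugt2b5, Ugt2b37, Ugt2a3, Ugt2b38, Ugt2a1 and Ugt2a2 in the RefSeq annotation. The differences of the first 5, each from its brightest probe set, were -0.25, -2.49, 0.35, -0.30 and -0.67, so that Ugt2b1, 5.62-fold lower in HCC, lay between 2 genes that did not pass the test. Ugt2a3, at -1.76, lay between Ugt2b37, at -0.39, and Ugt2b38, at -0.64, neither past the test. The difference between neighbours was itself not tested. Paralogues of this cluster are alike in sequence, and a probe set can take up RNA of a near-identical copy, so values of single Ugt2b genes are uncertain to that extent. The suffix _s_at marks a probe set whose probes match more than 1 transcript.

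Y-linked transcripts divided both groups in the same proportion: 4 HCC and 4 normal livers had signal of Eif2s3y, Kdm5d and Uty, and HCC 1, HCC 4, normal 1 and normal 3 did not. Xist was at 11.79 to 12.70 in the arrays without that signal and at 5.12 to 7.56 in those with it. Among normal livers Ugt2b1 averaged 14.50 in the 4 with Y-linked signal and 13.57 in the 2 without. The difference of HCC from normal was -3.04 for Ugt2b1 with Y-linked signal and -1.40 without it, and -2.98 and -0.47 for Ugt3a2. No member had an interaction with Y-linked signal at an adjusted p under 0.05 (limma, lowest adjusted p = 0.476). Over all probe sets 0.0444% had one. The smallest interaction p-values were those of 1427960_at of Ugt2b34 and of Ugt2b35 (limma adjusted p = 0.476 and 0.540), neither past the test. Without Y-linked signal, in 2 arrays per group, these 2 sets were higher than normal liver (0.79 and 1.25). With the signal they were below it (-0.18 and -0.10). Within the 4 HCC and 4 normal livers with the signal, Ugt2b1, Ugt2a3 and Ugt2b5 kept their direction but did not pass (limma adjusted p = 0.076, 0.0818 and 0.121), and the 2 Ugt3a1 sets passed. Within the 2 and 2 without it no member passed. Both divisions hold fewer arrays. HCC 1 and HCC 4, the only tumours without the signal, were also the 2 with the highest Glul and Axin2 and the lowest Cyp2f2. HCC 6, which had the signal, was also above every normal liver for Glul and Axin2, at 14.62 and 9.14. The part of these markers in the values by Y-linked signal was not tested.

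The second question was whether the rest of the glucuronidation pathway moved. The Ugt1a genes, which include the bilirubin enzyme Ugt1a1, share their last exons, and 3 probe sets each named 8 of them. They averaged from 14.37 to 14.81 in HCC and from 14.73 to 15.10 in normal liver, with differences from -0.36 to -0.29 that did not pass (limma adjusted p from 0.176 to 0.29). A dim probe set of Ugt2a1 and Ugt2a2, mainly olfactory enzymes, read 5.87 ± 0.37 (SD) in the 6 HCC and 6.64 ± 0.34 in the 6 normal livers. It was lower by 0.77 on the log2 scale (limma adjusted p = 0.0413), and leaving out any of 11 arrays ended the call (adjusted p as high as 0.0835). Neither of the other measured glycosyltransferases, Ugt2b37 and Ugt8a, passed the test. Ugt8a, which makes galactosylceramide, had the smaller p of the 2 (difference -0.31, limma adjusted p = 0.376).

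Genes were next represented by their brightest probe set, on which 5.49% of 18193 genes were lower and 5.27% higher in HCC. Of 14 measured genes that supply, move or use UDP-glucuronate and UDP-glucose, 3 rose, 1 fell and 10 did not pass. Miox, myo-inositol oxygenase, which makes free glucuronate and is chiefly a kidney enzyme, rose most. It read 9.36, 8.87, 10.24, 9.64, 8.79 and 10.35 in HCC 1 to HCC 6, against 4.73, 5.59, 4.51, 5.95, 5.49 and 6.66 in normal 1 to normal 6, so the groups were far apart. The difference was 4.05 ± 0.39 (SE, limma adjusted p = 8.65e-05), a size that depends on normal livers near the floor of 4. The phosphoglucomutase Pgm2 was higher by 0.59, and Uxs1, which turns UDP-glucuronate into UDP-xylose, by 0.57 (limma adjusted p = 0.0362 and 0.0386). Slc35d1, which carries UDP-glucuronate into the endoplasmic reticulum, was at 10.94 ± 0.51 (SD) in the 6 HCC and 11.74 ± 0.19 in the 6 normal livers and fell by 0.81 (limma adjusted p = 0.0434). The calls of Pgm2, Uxs1 and Slc35d1 ended when any of 11, 9 and 10 arrays in turn was left out (adjusted p as high as 0.0908), and other probe sets of Uxs1 and Slc35d1 did not share them. The median difference of the list was 0.13.

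Of 9 genes for transport or hydrolysis of glucuronides and other organic anions, 1 rose, 1 fell and 7 did not pass. The organic anion transporter Slc22a7 fell by 2.29 ± 0.31 (SE, limma adjusted p = 0.000878), to between 8.18 and 10.22 in HCC against 10.87 to 12.04 in normal liver. The efflux pump Abcc4 rose by 2.15 ± 0.59 (SE, limma adjusted p = 0.04), which any of 9 arrays ended when left out (adjusted p as high as 0.0847). It was at 11.61, 8.48, 9.71, 11.38, 8.20 and 10.43 in HCC 1 to HCC 6, lowest in HCC 2 and HCC 5, the tumours with the least Ugdh, against 6.82 to 8.60 in normal liver. Abcc2, the canalicular exporter of glucuronides, and Gusb, the lysosomal glucuronidase, did not pass, with differences of 0.56 and 0.58 (limma adjusted p = 0.23 and 0.104). The uptake transporter Slco1a1, singled out after its values were seen, had 1 probe set past the test and 1 not (-4.16 and -4.24, limma adjusted p = 0.0263 and 0.0733), and its 2 normal livers without Y-linked signal were at 5.02 and 5.17 against 11.72 to 12.40 in the other 4.

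Of 18 measured regulators known to act on Ugt genes or on their sex and hormone control in liver, 2 rose, 4 fell and 12 did not pass. The growth hormone receptor Ghr fell by 1.64 (limma adjusted p = 0.00379). The xenobiotic receptor CAR (Nr1i3) was at 9.88, 8.43, 9.36, 10.15, 8.0 and 9.91 in HCC 1 to HCC 6, lowest in HCC 2 and HCC 5, against 10.81 to 11.60 in normal liver (difference -1.80 ± 0.35, SE, limma adjusted p = 0.00785). The bile acid receptor FXR (Nr1h4) fell by 1.54 and the antioxidant factor NRF2 (Nfe2l2) rose by 0.92 (limma adjusted p = 0.00895 and 0.0145). Another probe set of Nfe2l2, at -0.74, did not share that call, and the replicate block ended it (adjusted p = 0.0524). The other 2 past the test were Cebpa at -0.71 and Foxa3 at 1.05, each with 1 array whose omission ended the call (adjusted p = 0.0523 and 0.0506). The replicate block ended the call of Cebpa as well (adjusted p = 0.084). The pregnane X receptor (Nr1i2) was at -0.07 and Hnf4a at 0.09, and neither passed.

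**Figure D4:**
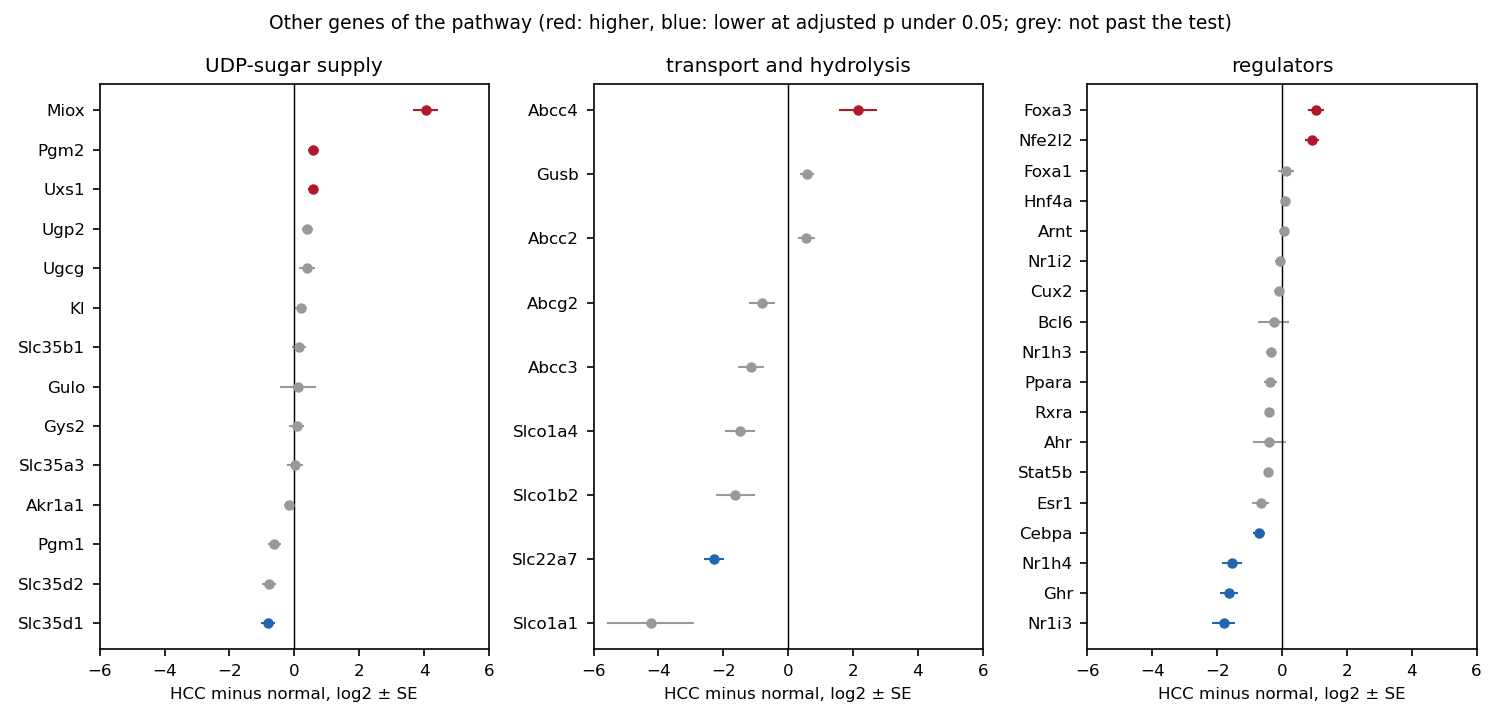
HCC minus normal, log2(intensity + 16) ± SE, for the brightest probe set of each measured gene in 3 lists. Red and blue points passed an adjusted p under 0.05 and grey ones did not; Miox lies farthest right at 4.05 and Slco1a1, not past the test, farthest left at -4.24.

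The likeness of other genes was described by Pearson's r over the 12 arrays among 11382 genes above the median probe set, with no test, since a shared difference between the groups by itself gives a high r. Ugt3a1 was most like Gcdh (0.990), Cyp2d13 (0.990) and Slc22a30 (0.989), and Ugt2b1 like Faah (0.982), Nipsnap1 (0.981) and Ngly1 (0.978). Ugt3a2 came closest to Rgn (0.977), Aldh2 (0.967) and Wdr45 (0.948), and Ugt2a3 to Aadat (0.987), Pipox (0.977) and Fmc1 (0.972). For Ugdh they were Creg1 (0.922), Ythdf1 (0.901) and the glutathione transferase Gstm2 (0.866). Ugt2b34, from 1427961_s_at, was most like Cyp2c38 (0.919), Cyp2c39 (0.917) and Kctd6 (0.914). The closest to Ugt2b5, Ugt2b35, Ugt2b36 and Ugt2b38 were H2-Ke6 (0.956), Ociad1 (0.872), Acaa1a (0.959) and Gfm1 (0.956).

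Of 6 measured hepatocyte markers 0 passed limma's test. Albumin, transthyretin, Hnf4a, Apob and Apoa1 differed by 0.08, 0.07, 0.09, -0.04 and -0.02. Albumin, transthyretin, Apob and Apoa1 lay near the top of the scale, with HCC means of 15.50, 15.63, 15.27 and 16.05. Apoa1 had the same normalized value in all 6 normal livers (SD 0). A change at that height is poorly measured, so these small differences do not show that hepatocyte content was unchanged. Cps1 differed by -0.86 (limma adjusted p = 0.215), with an SD of 1.07 in the 6 HCC and 0.05 in the 6 normal livers. The mean level of the 6 markers per array was 14.80 to 15.25 in HCC and 15.11 to 15.22 in normal liver. In this bulk tissue fewer cells of a type and less RNA per cell cannot be told apart. None of the measured markers of cholangiocytes and progenitors (5), lymphocytes (7) and pancreatic acinar cells (4) passed. The acinar lipase gene Pnliprp1 nevertheless had every HCC above every normal liver, at 8.77 ± 3.54 (SD) in the 6 HCC and 4.85 ± 0.32 in the 6 normal livers (difference 3.92, limma adjusted p = 0.0794), while the other 3 acinar markers differed by -0.98 to 0.11. Of 6 endothelial markers Clec4g and Stab2 fell by 2.13 and 1.11, and the other 4 did not pass, Pecam1 and Cdh5 with differences of 1.38 and 1.0. The calls of Clec4g and Stab2 each ended with any of 4 arrays left out (adjusted p as high as 0.0538 and 0.0556), and a second probe set of Clec4g, at -0.34, did not share its call. Of 6 macrophage markers Clec4f and Timd4 fell by 2.36 and 2.11, and the other 4 did not pass, Cd68 with a difference of 1.34. Of 7 stellate cell and fibroblast markers Lrat fell by 2.52 and the other 6 did not pass. Among those 6, Col1a1, Col3a1, Col1a2 and Acta2 had positive differences of 3.27 (limma adjusted p = 0.0515), 1.68, 1.28 and 0.93, and Dcn and Des had -2.07 and -0.89. The median difference was -0.08, -0.41 and 0.93 over the endothelial, macrophage and stellate lists. The mean level of the endothelial list was 7.92 to 9.44 in HCC and 8.35 to 9.51 in normal liver, that of the macrophage list 7.57 to 9.0 and 8.26 to 9.33, and that of the stellate list 7.24 to 12.18 and 8.57 to 9.55. Their part in the falls of Ugt genes was not tested. In the deposited intensities every array had a 2% trimmed mean of 500.0. Between 14.2% and 18.1% of probe sets per array had values below the pseudocount of 16.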

How the data were processed

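RNA of 6 HCC and 6 normal livers was measured on 12 Affymetrix arrays. Per the labels' protocols, TRIzol and a DNase column step gave the total RNA, which went through one-cycle labelling. The deposited intensity values of the authors were linear signals from 0.104 to 82666, scaled to a common 2% trimmed mean. The method of probe summary was not given in the sources used here. log2(intensity + 16) was quantile normalized. limma (3.58.1, R 4.3.3) was fitted over 45037 probe sets without the 64 controls, two-sided, with Benjamini-Hochberg adjustment over all of them, and the fit was tested on simulated data. Gene names came from the platform annotation, in which 34945 probe sets named 1 gene, 932 several and 9160 none. Promoters were aligned end to end, and the pair shown with capitals was chosen for its identity. Python 3.11.15, numpy 2.4.6, pandas 2.3.3 and matplotlib 3.10.9 were used for sequences and figures.

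The members, lists and tests were chosen with earlier results of these data known. Every member probe set was named. From each list of the pathway up to 4 genes past the test with the smallest p were named, or the 1 with the smallest p. Genes named beyond that, such as Slco1a1, Cebpa, Foxa3, Abcc2, Gusb, Nr1i2 and Hnf4a, were chosen after their values were seen. Both groups are numbered 1 to 6. Deviations of same-number arrays correlated from -0.02 to 0.06, and the numbers were therefore not treated as pairing the arrays. Y-linked signal was also unlike within 2 of the numbers: HCC 3 and normal 4 had it, and normal 3 and HCC 4 did not. Alternatives changed the scaling, pseudocount (1 or 64), filter, probe set summary, variance model, array weights, block, Y-linked level, test and threshold, and left out each array.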

Additional observations from a re-analysis of the deposited data

Results flagged for a closer look

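Of 24 groups of 6 values (12 probe sets in HCC and in normal liver), 3 had a sample whose gap to its nearest neighbour, divided by the range of the group, was above the critical value of Dixon's test at 95%. Chance alone gives this in about 1 group in 20. HCC 6 was the lowest tumour for Ugt2b36 with a ratio of 0.695, at 13.48 with the next tumour at 14.26. Normal 1 was the lowest normal liver for Ugt2b5 with a ratio of 0.675, at 14.46 with the next at 14.76. Normal 3 was the lowest normal liver for Ugdh with a ratio of 0.725, at 12.19 with the next at 12.82.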

How the results depend on the processing

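Over 27 alternatives Ugt3a1 (1424493_s_at) lost its call only in the arrays without Y-linked signal, and its difference ran from -3.70 to -2.65. The count of member probe sets lower in HCC was 5, and 4 to 5 with 1 array left out. It was 6 by exact Wilcoxon test and with only probe sets above the median, where Ugt3a2 passed too. It was 2 in the arrays with Y-linked signal, 0 in those without it, and 2 at an adjusted p under 0.01. No alternative called a member higher. The median over the members ran from -0.73 to -0.49 with 1 array left out. The pathway lists had 6 genes higher and 6 lower. With 1 array left out 2 to 5 were higher and 4 to 7 lower. Higher genes numbered 3 with the replicate block, 1 and 0 in arrays with and without Y-linked signal, 3 by exact Wilcoxon test and 1 at an adjusted p under 0.01. Lower genes numbered 11 with a pseudocount of 64, 12 with only probe sets above the median and 0 without Y-linked signal. Over all probe sets 1971 were higher and 1780 lower, and 1384 to 2017 and 1128 to 1935 with 1 array left out. They were 1159 and 926 with the replicate block, 817 and 664 with Y-linked signal, 7 and 3 without it, and 788 and 555 at an adjusted p under 0.01. With the deposited scaling they were 2328 and 1477. Refitted by gene, with p-values adjusted over genes alone, they were 1179 and 1318 from the brightest probe set and 1020 and 1160 from the mean of a gene's sets, so that more were lower than higher. The 5.27% and 5.49% of genes in the report come from the fit over all probe sets. The replicate block also ended the call of Ugt2b5 (adjusted p = 0.0793) and of no other member. Signs turned for members that had no call: 1427960_at of Ugt2b34 with median centring (-0.049), in arrays with Y-linked signal (-0.18) and without HCC 1 (-0.050, range with 1 array left out to 0.28); Ugt2b35 with Y-linked signal (-0.10); 1427961_s_at of Ugt2b34 (0.15), Ugt2b36 (0.071) and Ugdh (0.86) without it; and Ugdh without HCC 2 (0.10) or HCC 5 (0.01), with a range down to -0.44. The causes were not tested, and some of these alternatives held fewer arrays or fewer probe sets. The interaction with Y-linked signal was 0 of 12 throughout. Signals near the floor limit Ugt2b38.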
